A study of Mus musculus with 6 samples.

Results

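The small nucleolar RNA (snoRNA) genes were taken as the rows of the expression table whose symbol begins with Snora or Snord followed by a number. There were 112 such genes among 38739 rows, 25 of the H/ACA class (Snora) and 87 of the C/D class (Snord). The table came from RNA sequencing of peritoneal neutrophils of cGAS knockout mice of the C57B/L6 strain, and the question was how these cells respond to lipopolysaccharide (LPS), the endotoxin of Gram-negative bacteria. Cells kept in medium alone (untreated, n = 3) were compared with cells given 500 ng/mL of E. coli LPS (n = 3), both for 2 h. Both groups lacked cGAS, the sensor of cytosolic DNA, and no wild-type sample was analysed here, so a role of cGAS itself cannot be read from these data. The Cgas gene was listed at 0.203, 0.307 and 0.18 in the untreated and at 0.184, 0.0713 and 0.0286 in the LPS samples, low in all 6. The study's methods describe the samples as triplicates of neutrophils washed from the peritoneum, but the labels do not say whether they came from separate mice, so the p-values below measure only the spread between these samples.

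SnoRNAs are short nuclear RNAs that base-pair with ribosomal and spliceosomal RNA and bring an enzyme to the paired site. C/D snoRNAs carry the methyltransferase fibrillarin (Fbl) with Nop56, Nop58 and Snu13 and direct 2′-O-methylation, whereas H/ACA snoRNAs carry the pseudouridine synthase dyskerin (Dkc1) with Nhp2, Nop10 and Gar1 and direct pseudouridylation. A few, such as U3 (the Snord3 genes) and U8 (Snord118), act in the cleavage of the ribosomal RNA precursor. Most are cut from introns of host genes, many of which encode ribosomal proteins and translation factors, and they end without a poly(A) tail.

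All 112 genes matched a gene of type snoRNA in the GENCODE M39 annotation of GRCm39. The C/D genes were 64 to 238 bases long with a median of 87 bases, and the H/ACA genes 121 to 205 bases with a median of 132 bases. The letters TGATGA, the usual form of the C box, stood within the first 20 bases of 59 of 87 C/D genes (67.8%). CTGA, the D box, stood within the last 15 bases of 83 of the 87 (95.4%), and ACA stood within the last 8 bases of 24 of 25 H/ACA genes (96%). Among 6618 other annotated single-transcript genes of up to 250 bases, these 3 shares were 0.499%, 5.98% and 11.5% on the gene's own strand and 0.136%, 8.25% and 13.2% on the other strand. On the other strand of the C/D genes, TGATGA was found in 0 of 87 and CTGA in 3, and on that of the H/ACA genes ACA was found in 4 of 25. The sequences therefore went with the class names.

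The sequences of the members on which the results below turn were taken from the GENCODE M39 transcripts and are written 5′ to 3′ on the gene's own strand. Capitals mark the C box letters TGATGA near the start and the D box letters CTGA near the end of a C/D RNA, or the ACA near the end of an H/ACA RNA, where those exact letters were found. The first is the only snoRNA gene that passed the limits of the comparison, Snord89 (chr1:39587826-39587935 on the minus strand).
Snord89: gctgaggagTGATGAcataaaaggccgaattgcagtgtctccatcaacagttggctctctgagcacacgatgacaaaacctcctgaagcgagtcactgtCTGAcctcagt
Snord98 (chr10:62601355-62601419 on the minus strand) and Snord71 (chr8:110565927-110566011 on the plus strand) had the lowest fold changes.
Snord98: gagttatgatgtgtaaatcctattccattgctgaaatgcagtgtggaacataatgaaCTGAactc
Snord71: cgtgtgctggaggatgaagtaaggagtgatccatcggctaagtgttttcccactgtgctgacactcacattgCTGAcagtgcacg
The next 3 lie in one host RNA, 2410006H16Rik, and share a length of 72 bases: Snord49a (chr11:62494276-62494347 on the plus strand), Snord49b (chr11:62493905-62493976 on the plus strand) and Snord65 (chr11:62495341-62495412 on the plus strand).
Snord49a: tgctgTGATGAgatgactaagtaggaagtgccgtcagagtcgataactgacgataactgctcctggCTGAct
Snord49b: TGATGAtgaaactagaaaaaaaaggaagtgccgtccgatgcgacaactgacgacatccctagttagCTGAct
Snord65: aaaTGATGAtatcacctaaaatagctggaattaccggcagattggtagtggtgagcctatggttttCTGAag
The H/ACA genes with the highest mean value and with a second H/ACA gene of its length listed in the same sample are Snora41 (chr1:63218163-63218294 on the plus strand) and Snora17 (chr2:26529202-26529333 on the minus strand).
Snora41: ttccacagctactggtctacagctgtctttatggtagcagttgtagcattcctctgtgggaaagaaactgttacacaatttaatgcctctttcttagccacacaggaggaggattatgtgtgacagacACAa
Snora17: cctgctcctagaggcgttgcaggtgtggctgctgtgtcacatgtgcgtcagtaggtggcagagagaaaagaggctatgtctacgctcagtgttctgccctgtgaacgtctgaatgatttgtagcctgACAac

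Values were scaled TPM (TPM is a transcript abundance corrected for length and library size), as far as can be read from the table and the methods. From the values they were taken as a mean TPM per gene with one scaling factor per sample, a reading that the methods do not state. Their sum over all genes lay between 603599 and 713384 without LPS and between 404675 and 465904 with it, and the number of genes above 0 between 15419 and 15800 and between 16148 and 19191. Such values do not give the sequencing depth. The libraries were made with a kit for mRNA, and the part of this in the snoRNA values was not tested. Summed values of 12 neutrophil marker genes ran from 10400 to 30200 in the untreated and from 18200 to 57600 in the LPS samples, those of 11 macrophage markers from 166 to 208 and from 278 to 422, and those of 5 B cell markers from 143 to 543 and from 67.1 to 238. Those of 6 T cell markers ran from 15.1 to 16.8 and from 5.64 to 13.5, of 3 mast cell markers from 4.69 to 40.8 and from 5.05 to 49.1, and of 5 eosinophil markers, with Epx at 0 throughout, from 3.1 to 8.52 and from 2.02 to 5.31. The part of these other cells in the snoRNA values was not tested.

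Most snoRNA genes were listed at 0 in every sample. Of the 112, 83 had no value above 0 (16 H/ACA and 67 C/D) and 29 had one in at least 1 sample (9 H/ACA and 20 C/D). Of these 29, 18 were above 0 in 1 sample, 6 in 2, 4 in 3 and 1 in 5 samples, and 0 in all 6. The share of genes with any value, 25.9%, compares with 59.5% of all rows, 9.78% of 859 microRNA genes and 7.53% of 1009 other genes annotated as snoRNAs but without a Snora or Snord symbol. The share was higher in 2 small sets, at 28.6% of 7 small Cajal body RNA genes (Scarna) and 37.5% of 16 rows with a snoRNA family name in capitals.

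**Figure D1:**
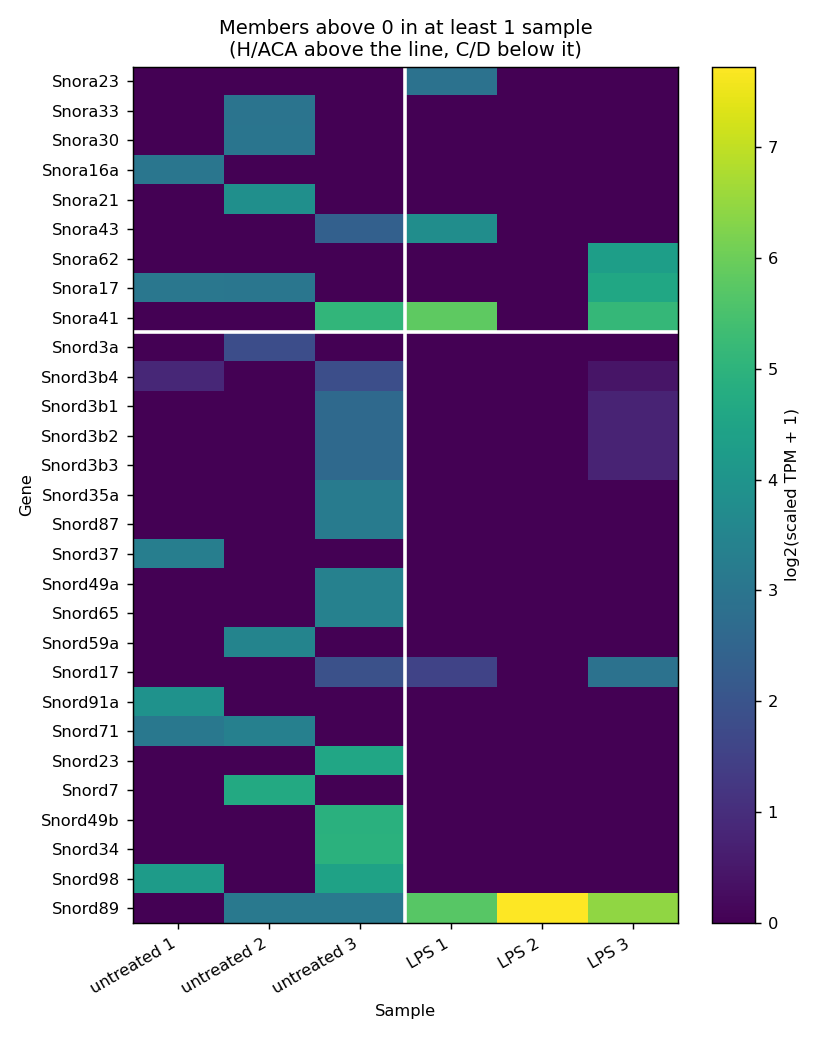
Heat map of the 29 snoRNA genes (rows, H/ACA above the horizontal line and C/D below it) in the 6 samples (columns, untreated left and LPS right), coloured by log2(scaled TPM + 1) from 0 (dark) to the highest value (yellow). Most cells are at 0, single untreated samples hold most of the rest, and Snord89 in the bottom row is bright in the 3 LPS samples.

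The C/D genes were listed more often in untreated cells, and the H/ACA genes about as often in both groups. C/D genes above 0 numbered 5, 5 and 14 of 87 in untreated samples 1, 2 and 3 and 2, 1 and 6 in LPS samples 1, 2 and 3. Untreated sample 3 stood apart with 14, and the groups overlapped. Over the group, 20 C/D genes were above 0 in at least 1 untreated sample and 6 in at least 1 LPS sample. All 6 were among the 20, so 14 were listed in untreated samples only and 0 in LPS samples only. Of the 6, 2 (Snord89 and Snord17) reached a value of at least 1 in the LPS group, and the other four were copies of U3 with lower values. H/ACA genes above 0 numbered 2, 4 and 2 of 25 in the untreated and 3, 0 and 3 in the LPS samples, with 7 genes in the untreated group, 5 in the LPS group and 3 in both.

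**Figure D2:**
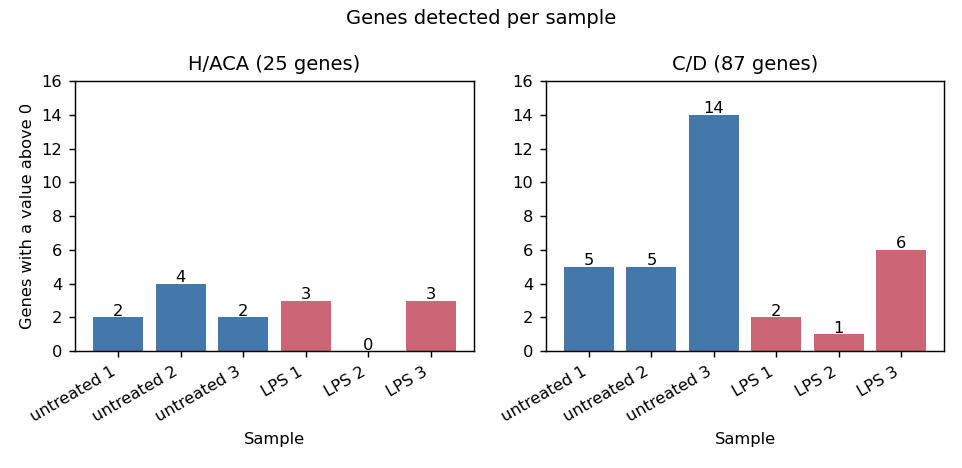
Bars give the number of genes with a value above 0 in each sample (untreated blue, LPS red), for the 25 H/ACA genes on the left and the 87 C/D genes on the right. The C/D bar of untreated sample 3 (14 genes) is the tallest, and LPS sample 2 has 0 H/ACA genes and 1 C/D gene.

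The difference in the C/D class moved with gene length, and it was seen in other short genes too. Among single-transcript genes of up to 250 bases, the shortest one above 0 had 38 bases in each untreated sample but 81, 90 and 90 bases in LPS samples 1, 2 and 3. Of 898 such genes under 80 bases, 55, 55 and 68 were above 0 without LPS and 0 in each LPS sample. Of 722 genes of 80 to 99 bases, 52, 55 and 47 were above 0 in the untreated and 8, 3 and 11 in the LPS samples. Of 3374 genes of 100 to 250 bases, 349, 280 and 285 were above 0 in the untreated and 230, 146 and 225 in the LPS samples, also fewer but by a smaller factor. The length bounds of 80 and 100 bases were chosen after these values were seen. Of the 87 C/D genes, 33 were under 80 bases and 39 were of 80 to 99 bases, whereas the 25 H/ACA genes were all of 100 bases or longer.

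Below 100 bases, 12 C/D genes were above 0 in untreated cells (7 under 80 bases and 5 of 80 to 99 bases) and 0 in LPS cells. These 12 made up most of the 14 genes listed only in untreated samples. Of the 15 C/D genes of 100 bases or longer, 8 were above 0 in the untreated group and 6 in the LPS group, all 6 shared, with 1, 2 and 7 genes in the untreated and 2, 1 and 6 in the LPS samples. Both counts include Snord3b1 to Snord3b4, U3 copies of the same sequence whose reads cannot be told apart. Of the 6, only Snord89 and Snord17 reached a value of at least 1 in the LPS group. Length and treatment cannot be told apart for a C/D gene under 80 bases, because none of those 898 genes had a value in any LPS sample. Whether both groups were quantified with the same fragment length was not tested, so a 0 of a gene under 100 bases after LPS cannot be read as an absent RNA, and the scaled TPM of short genes such as Snord89 carries the same limit. MicroRNA genes, whose annotated precursors are also short, were above 0 in 36 to 40 rows per untreated sample and in 10 to 12 per LPS sample.

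**Figure D3:**
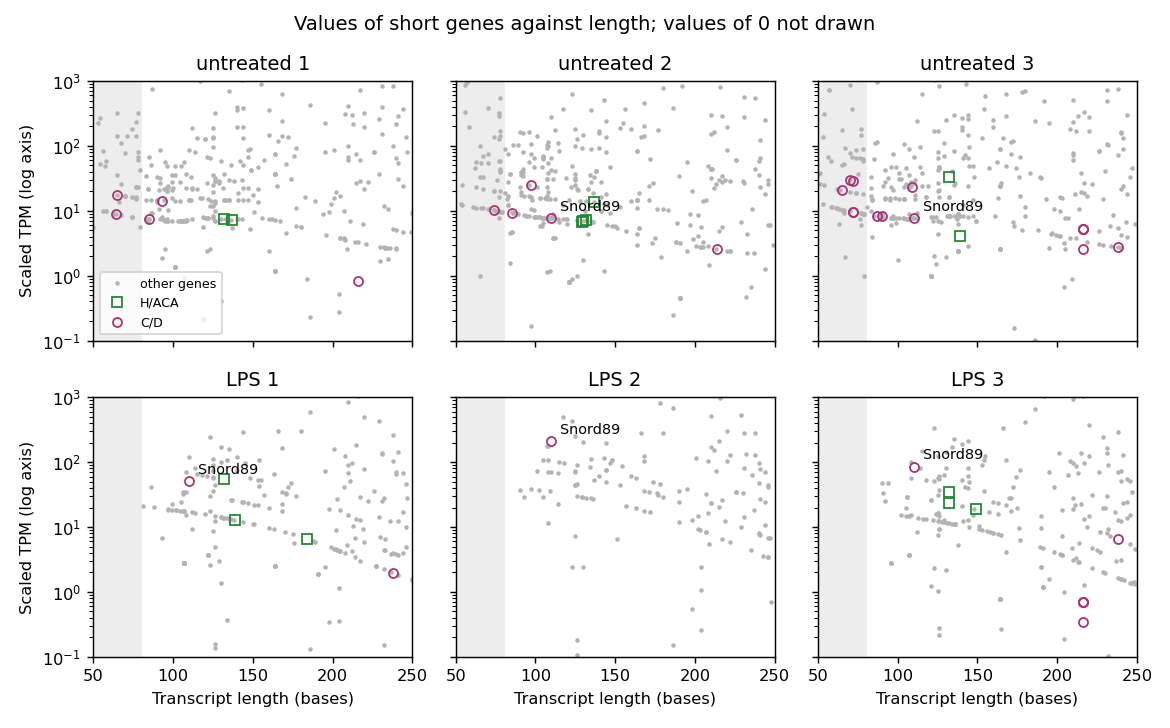
Each panel plots one sample, with transcript length in bases on the x axis and scaled TPM on a log y axis from 0.1 to 1000, for single-transcript genes (grey), H/ACA (green squares) and C/D genes (purple circles), with values of 0 not drawn. The shaded range under 80 bases holds points in the 3 untreated samples and none in the 3 LPS samples, and many grey points lie on a lower line that falls with length.

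The values that were above 0 stood on a small number of levels. At one length in one sample, many genes shared a lowest value and others lay at whole multiples of it. This recurring value is called a step here, and it was taken as the value of 1 sequenced fragment, which was not checked against reads. The 3 snoRNA genes of 72 bases in one host show it in untreated sample 3, where Snord49a and Snord65 were both listed at 9.57 and Snord49b at 28.7, or 2.97 steps. Snord49a and Snord49b share 46 of 72 bases without gaps, and Snord49a and Snord65 share 18. The H/ACA genes Snora17 and Snora41, both of 132 bases, were listed in LPS sample 3 at 23.1 (2.01 steps) and 34.7 (3.02 steps).

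Steps were estimated for each value from genes within 8 bases of its length, with the snoRNA genes themselves left out. Of 47 values above 0, 37 lay within 5% of a whole number of steps, 20 of them at 1 step, 6 at 2, 6 at 3, 3 at 4 and 2 at 6. With a window of 5 bases 35 values did, the exceptions being Snord3a (0.06 step) and Snord71 (0.76 step) in untreated sample 2, and with a window of 12 bases 37. The other ten of the 47 were the 9 values of the U3 copies Snord3b1 to Snord3b4 and 1 value of Snora43 at 0.5 step. The whole-step values of all snoRNA genes added up to 8, 12 and 21 steps in untreated samples 1, 2 and 3 and to 10, 6 and 17 steps in LPS samples 1, 2 and 3. A step at 110 bases was worth 7.15, 7.67 and 7.61 in the untreated samples and 16.9, 34.8 and 14.1 in the LPS samples, so that at this length the same number of steps gave a higher scaled TPM after LPS. At the 238 bases of Snord17 the order was the reverse, with a step worth 2.75 in untreated sample 3 and 1.96 and 1.64 in LPS samples 1 and 3. Near 110 bases, 11 of 16 values of other genes lay at whole steps in LPS sample 2 and only 10 of 34 in untreated sample 1, so the estimate was less secure there. Near 238 bases, only 6 of 26 did in untreated sample 3 and 9 of 29 and 8 of 32 in LPS samples 1 and 3. The reverse order at that length thus rests on estimates that are not secure.

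Snord89, a C/D snoRNA, was the one gene called different. It was listed at 0, 7.67 and 7.63 in untreated samples 1, 2 and 3 and at 51.2, 210 and 85.3 in LPS samples 1, 2 and 3. All LPS values lay above all untreated values, as they did for 13.1% of all 23049 genes tested. On the log2(value + 1) scale it was higher after LPS by 4.55 ± 1.00 (SE, limma, unadjusted p = 0.00376, Benjamini-Hochberg adjusted p = 0.0843). This met both limits of the study (p below 0.01 before adjustment, and a change of more than 2 on the log2 scale) but not an adjusted p of 0.05. It was not called without LPS sample 2 (3.99, adjusted p = 0.172) or without LPS sample 3 (4.64, adjusted p = 0.245).

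In steps, the Snord89 values were 0, 1 and 1 in the untreated samples and 3.02, 6.04 and 6.04 in the LPS samples, a few fragments each under that reading. Snord89 held 0 of 8, 1 of 12 and 1 of 21 snoRNA steps in the untreated samples and 3 of 10, 6 of 6 and 6 of 17 in the LPS samples. The untreated totals include steps of C/D genes under 100 bases, which were all at 0 after LPS. These shares therefore carry the length limit given above and cannot be compared between the groups without it. Its 110 bases, given above, lie in a length range that had values in all 6 samples. In untreated sample 2 its value was shared by 2 other genes of 110 bases.

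Snord89 lies in an intron of the long non-coding RNA Gm15832 (chr1:39586651-39591083, minus strand) and 2266 bases from the protein-coding gene Rnf149, which encodes a RING finger ubiquitin ligase, on the same strand. Neither was called. Gm15832 was listed at 336, 171 and 234 in the untreated and at 147, 215 and 114 in the LPS samples, with overlapping groups (log2 fold change -0.63 ± 0.39, SE, limma adjusted p = 0.481). Rnf149 was listed at 280, 298 and 236 and at 112, 181 and 98.3 and was not called (-1.09 ± 0.33, SE, limma adjusted p = 0.165). Every LPS value of Rnf149 lay below every untreated value, as for 2248 of all 23049 genes tested.

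**Figure D4:**
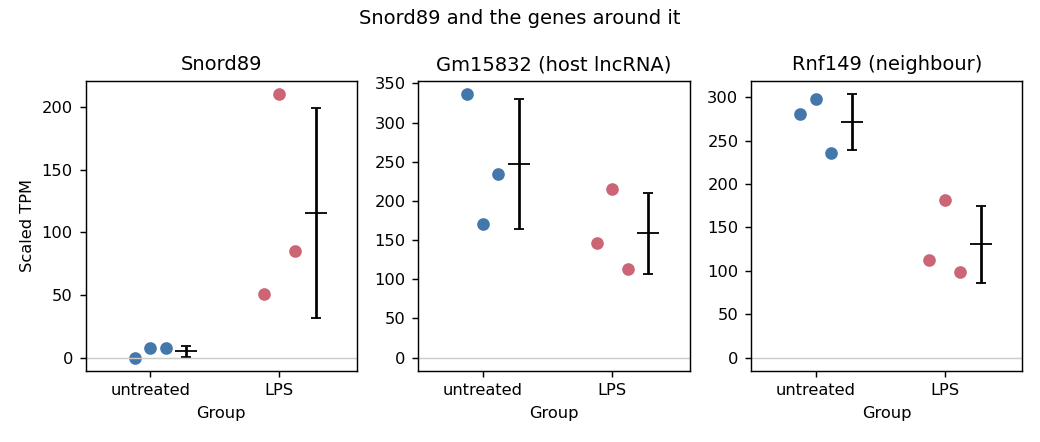
Scaled TPM (y axes, each from 0 on its own scale) of Snord89, its host Gm15832 and its neighbour Rnf149 in the untreated (blue) and LPS (red) samples. Points are samples, and the bar beside them is the mean with its SD (n = 3). Snord89 is near 0 untreated and between 51.2 and 210 after LPS, while the LPS points of Rnf149 lie below its untreated points.

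Across the class, 20 of 87 C/D genes had a value and could be tested. Of these, 1 was called higher, beside 1.69% of all genes tested, and 0 were called lower, beside 1.31%. With an adjusted p under 0.05 in place of these limits, limma called 0 C/D genes, beside 1.84% of all genes, and 1 C/D gene (Snord89) had an unadjusted p under 0.05. Over all genes the limits called 389 higher and 301 lower. This split became 796 and 146 when samples were scaled to equal sums and 310 and 414 when they were centred on their medians. The median log2 fold change of genes above 0 in all samples was 0.01 in the values as deposited, 0.30 after scaling to equal sums and -0.20 after centring, and Snord89 was called under each, with 4.34 after centring. The median log2 fold change was -1.12 over the 20 C/D genes and 0.01 over all genes tested, with 18 of the 20 negative. The median was -1.24 over the 12 tested C/D genes under 100 bases, all 12 negative, and -0.62 over the 8 of 100 bases or longer, of which 6 were negative. All 12, and 14 of the 20, had values in untreated samples only and could be tested only through that group. Their negative sign was thus fixed in advance, and these medians and counts say nothing further about LPS.

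The lowest C/D fold changes were those of Snord98, Snord71 and Snord34, and none passed the limits. Snord98 (65 bases, in Ccar1) was listed at 17.8, 0 and 20.9 in the untreated samples and at 0 in the LPS samples (-2.90 ± 1.21, SE, limma adjusted p = 0.303). Snord71 (85 bases, in Ap1g1) was listed at 7.47, 9.26 and 0, and at 0 after LPS (-2.15 ± 0.92, SE, limma adjusted p = 0.314). The Snord98 values stood at 2 steps and those of Snord71 at 1 step, although with a window of 5 bases the value of Snord71 in untreated sample 2 came to 0.76 step. Each was called lower only once its untreated sample at 0 was left out, Snord98 without untreated sample 2 (-4.35, limma adjusted p = 0.0105) and Snord71 without untreated sample 3 (-3.22, limma adjusted p = 0.0352). That sample was the only untreated one like the LPS samples. Without any other single sample, the limma adjusted p was 0.418 to 0.563 for Snord98 and 0.412 to 0.564 for Snord71. Both lie in the length range with few or no values after LPS.

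Other C/D genes with high means were listed in 1 untreated sample each. Snord34 (70 bases, in Rpl13a) stood at 29.6 in untreated sample 3, and its neighbour in the same host, Snord35a (90 bases), at 8.18, or 2.99 and 1.01 steps. Snord7 (97 bases, in AA465934), which guides methylation of the U6 spliceosomal RNA, stood at 24.6 in untreated sample 2 and Snord23 (109 bases, in Nop53) at 22.9 in untreated sample 3. Snord17 (238 bases, in Snx5), the longest C/D gene, was listed in both groups, at 0, 0 and 2.75 in the untreated and at 1.96, 0 and 6.53 in the LPS samples (0.86 ± 0.90, SE, limma adjusted p = 0.613). These groups overlapped.

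The U3 genes gave values that could not be placed on one gene. Snord3b1, Snord3b2, Snord3b3 and Snord3b4 lie within Tex14 on chromosome 11 and have the same 216 bases, with 0 differences between any pair. The first 3 had identical values, 5.19 in untreated sample 3 and 0.698 in LPS sample 3, and Snord3b4 had 0.5 of these values in both samples, with 0.816 in untreated sample 1. Reads of these copies cannot be told apart, so each single value is uncertain. Snord3a, also U3 and 214 bases long, stood at 2.57 in untreated sample 2 and at 0 elsewhere. U8 (Snord118) and Snord13, which serve in ribosomal RNA processing and modification, were at 0 throughout.

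The Snord116 cluster was at 0 in all samples. This imprinted array on chromosome 7, known from Prader-Willi syndrome and expressed mainly in neurons, gave 17 of the 87 C/D genes, with 4 distinct sequences that differ at up to 5 bases. Its host RNA Snhg14 was listed at 0.427, 0.521 and 0.319 in the untreated and at 0.346, 0.503 and 0.449 in the LPS samples. There were 0 Snord115 genes among the members.

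Of the 25 H/ACA genes, 9 had a value and could be tested. Of these, limma called 0 higher, beside 1.69% of all genes tested, and 0 lower, beside 1.31%. None had an unadjusted p under 0.05. At such shares, 9 genes are too few to set the class apart from all genes. The median log2 fold change of the 9 was -0.50, with 4 positive and 5 negative. Of the 9, 4 had values in untreated samples only and 2 in LPS samples only, which fixed their signs. Snora41, in the translation factor gene Eef1b2, had the highest mean. It was listed at 0, 0 and 33.0 in the untreated and at 55.5, 0 and 34.7 in the LPS samples, with overlapping groups (1.96 ± 2.05, SE, limma adjusted p = 0.61). Its values stood at 4.03, 4.02 and 3.02 steps, so the higher scaled TPM in LPS sample 1 than in untreated sample 3 went with about the same number of steps.

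Snora17 and Snora43 lie in the non-coding host gene Snhg7 on chromosome 2. Snora17 was listed at 7.41, 7.12 and 0 in the untreated and at 0, 0 and 23.1 in the LPS samples (-0.50 ± 1.51, SE, limma adjusted p = 0.87), and Snora43 at 0, 0 and 4.12 and at 12.8, 0 and 0 (0.48 ± 1.24, SE, limma adjusted p = 0.845). The direction of both turned when single samples were left out. Snora62, in the ribosomal protein gene Rpsa, was listed in LPS sample 3 alone at 19.0 (2 steps), and Snora23, in the importin gene Ipo7, in LPS sample 1 alone at 6.59 (1 step). Snora21, in Rpl23, was listed in untreated sample 2 alone at 13.5 (2 steps). Snora16a, in Snhg12, stood at 7.22 in untreated sample 1 and Snora30, in Srcap, at 7.07 in untreated sample 2. Every gene listed in a single sample had an adjusted p of 0.551.

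The summed values of the classes rested on these few genes. H/ACA sums were 14.6, 34.5 and 37.1 in the untreated and 74.9, 0 and 76.8 in the LPS samples. C/D sums were 49.3, 54.3 and 166 in the untreated and 53.1, 210 and 94.3 in the LPS samples. Without Snord89, the C/D sums were 49.3, 46.7 and 159 against 1.96, 0 and 8.97, with every LPS sum below every untreated sum, and the whole-step values were 6, 6 and 16 against 1, 0 and 4 steps. Snord89 was left out as the member with the largest value, which it had after LPS, and with it the sums of the groups overlapped. The separation without it follows from that choice and is no result about the class. The untreated sums include the 12 genes under 100 bases that were at 0 after LPS. The highest share of a sample's total held by all 112 genes was 0.0451%, in LPS sample 2.

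All 112 members lay within a longer gene on the same strand, which is called its host here by position alone. Whether each member, such as the U3 and U8 genes, is cut from that gene was not tested. There were 70 hosts, of which 50 were protein-coding and 20 long non-coding, and 69 members overlapped an annotated exon of at least 1 host transcript. Of the hosts, 66 were in the table. Several with the highest values had only snoRNAs at 0, such as Rps3a1 (1392, 491 and 1121 untreated and 899, 389 and 773 after LPS), the host of Snord73a and Snord73b, and Rpl23a (1512, 445 and 1295 against 419, 184 and 392), the host of Snord42a, Snord42b and Snord4a. The median mean value of the highest listed host was 22.6 for the 26 detected members with such a host and 4.64 for the 81 members at 0, with ranges from 0.164 to 203 and from 0.0245 to 844. Members of the same host enter with the same value, so these medians count some hosts several times. Among the 81 are the 17 Snord116 genes, all with the host Snhg14, which had means of 0.42 untreated and 0.43 after LPS.

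After LPS, 2 of the 66 hosts were called higher, beside 1.69% of all genes, and 0 lower, beside 1.31%. Ipo7, which carries proteins into the nucleus and hosts Snora23, was listed at 0.585, 0.96 and 1.08 in the untreated and at 11.0, 8.52 and 10.7 in the LPS samples (2.56 ± 0.29, SE, limma adjusted p = 0.0212). Rpl12, a protein of the large ribosomal subunit and host of Snora65, was listed at 1.56, 1.82 and 1.98 and at 26.5, 10.8 and 20.4 (2.78 ± 0.39, SE, limma adjusted p = 0.0351). Snora65 was at 0 in all samples and Snora23 was listed in 1 LPS sample. Of the hosts of the lowest C/D genes, Ap1g1 (Snord71) was listed at 2.11, 5.27 and 5.67 untreated and at 11.8, 14.9 and 9.43 after LPS (1.34 ± 0.41, SE, limma adjusted p = 0.166), the opposite direction to its snoRNA, and Ccar1 (Snord98) at 5.89, 4.19 and 10.1 and at 4.88, 4.78 and 4.41 (-0.37 ± 0.37, SE, limma adjusted p = 0.593).

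Among the proteins that snoRNAs work with, the 3 H/ACA core proteins listed had positive fold changes under each scaling tried. Of the 3 C/D core proteins listed, Nop58 was positive and Fbl negative under each scaling, and Nop56 turned from 0.15 to -0.05 after median centring. Of the H/ACA core proteins, 3 of 4 were in the table and 1 was called higher, beside 1.69% of all genes. Nhp2, an RNA-binding core protein, was listed at 7.10, 2.83 and 0.218 in the untreated and at 42.7, 16.8 and 40.9 in the LPS samples (3.25 ± 0.77, SE, limma adjusted p = 0.101). Nop10 gave 11.2, 1.04 and 8.67 against 45.3, 20.8 and 39.5 (2.47 ± 0.75, SE, limma adjusted p = 0.165). For both, every LPS value lay above every untreated value, as for 13.1% of all genes tested. Gar1 gave 5.95, 0 and 0.954 against 16.2, 4.82 and 14.2, with overlap (2.27 ± 0.82, SE, limma adjusted p = 0.233). Of the C/D core proteins, 3 of 4 were in the table and 0 were called, beside 1.69% of all genes called higher and 1.31% lower. Nop56, a scaffold protein, gave 11.1, 3.36 and 8.82 against 11.9, 3.81 and 10.5. The methyltransferase gene Fbl was listed at 46.9, 14.8 and 36.2 against 26.4, 8.63 and 21.5 (-0.75 ± 0.60, SE, limma adjusted p = 0.551), and the scaffold protein gene Nop58 at 8.33, 0.525 and 0.671 against 23.4, 6.35 and 18.4 (2.40 ± 0.85, SE, limma adjusted p = 0.227).

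Of 15 genes for snoRNP assembly, 10 were in the table, 9 had a positive fold change and 1 was called higher, with a median of 0.99 on the log2 scale. Of all 23049 genes tested, 12200 had a positive fold change and 1.69% were called higher, with a median of 0.01. The called gene was Ruvbl1, an ATPase of the R2TP chaperone complex, at 2.06, 0 and 0.49 in the untreated and 12.8, 6.32 and 12.7 in the LPS samples (2.75 ± 0.53, SE, limma adjusted p = 0.0638). Its partner Ruvbl2 gave 0.816, 0.193 and 0.194 against 4.54, 2.39 and 3.95 (1.72 ± 0.36, SE, limma adjusted p = 0.0774) and stayed under the fold limit. Of 16 genes for release, trimming and turnover, 11 were in the table, with a median of 0.73. Of these, 0 were called, beside 1.69% of all genes called higher and 1.31% lower. Exosc5, a subunit of the RNA exosome, had the largest change there (1.72 ± 0.33, SE, limma adjusted p = 0.0652), whereas Dbr1, which opens the intron lariats from which snoRNAs are trimmed, was at -0.86 (limma adjusted p = 0.254).

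Of 18 non-coding host genes, 13 were in the table, with a median of 0.07. Of these, 0 were called, beside 1.69% of all genes called higher and 1.31% lower. Zfas1 (1.86 ± 0.62, SE, limma adjusted p = 0.198) and Snhg15 (1.81 ± 0.65, SE, limma adjusted p = 0.23) had the largest fold changes. Each had every LPS value above every untreated value, as did 13.1% of all genes tested. Gas5, host of many C/D snoRNAs, was listed at 14.2, 13.8 and 11.0 in the untreated and 19.8, 8.16 and 13.6 in the LPS samples (0.02 ± 0.38, SE), a direction that turned after median centring (-0.18).

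**Figure D5:**
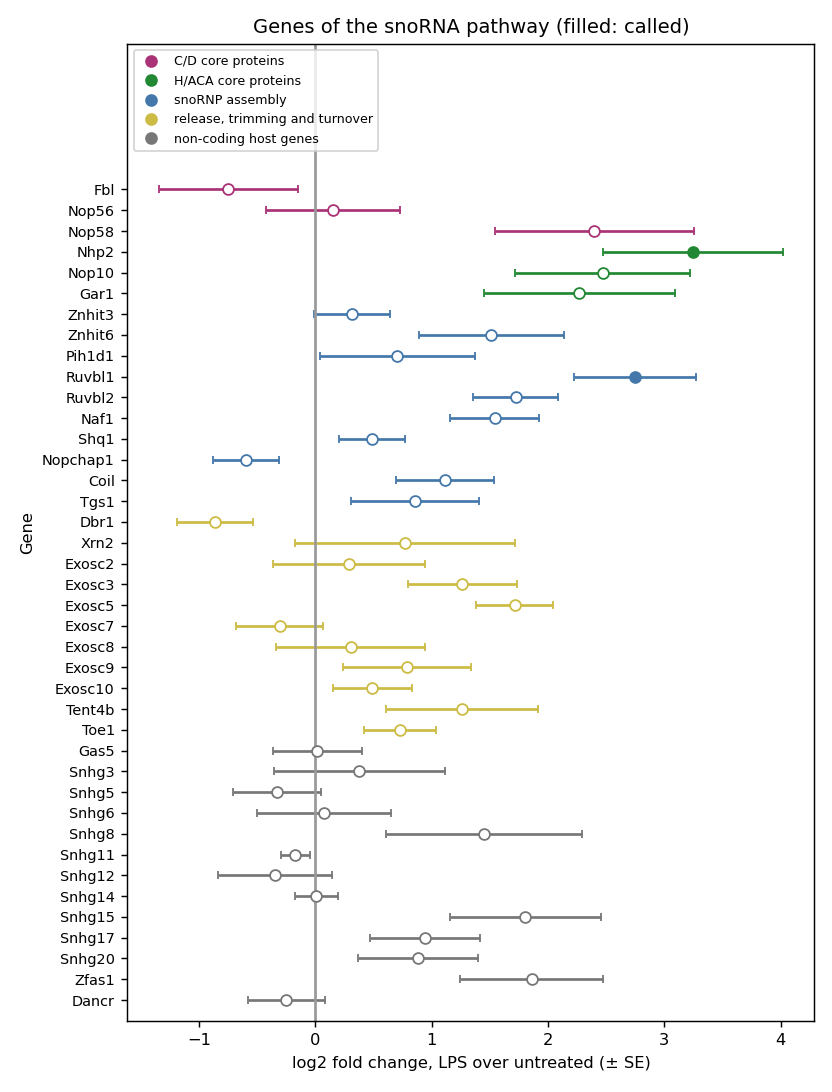
Points give the log2 fold change of LPS over untreated on the log2(scaled TPM + 1) scale with its SE (n = 3 per group) for the listed protein and non-coding genes, coloured by list, and filled where a gene passed the limits. Nhp2 (3.25) and Ruvbl1 (2.75) are filled, the 3 H/ACA core proteins lie to the right of 0 and Fbl (-0.75) to the left.

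A further 16 rows carried a snoRNA family name in capitals (SNORA or SNORD), had no match by that name in the annotation and were not members by the rule. Of these, 6 had a value. Of the 6, 1 was called lower, beside 1.31% of all genes tested, and 0 higher, beside 1.69%. The one called lower was SNORA63, listed at 105, 61.3 and 118 in the untreated and at 0, 9.70 and 0 in the LPS samples (-5.39 ± 0.99, SE, limma adjusted p = 0.0577). Its LPS values all lay below its untreated values, as for 2248 of all 23049 genes tested.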

How the data were processed

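Total RNA of 6 samples was sequenced with a stranded mRNA kit, and the labels name fastp, STAR and kallisto with the builds GRCm39 and mm10; the annotation release is not given in the sources used here. The deposited values, in a file named as normalized counts, were taken, from the values, as TPM with one mean per gene and one factor per sample. The methods of the authors name kallisto and edgeR and do not state this step. Labels and methods differ on the LPS dose, and the dose of the labels is given. SnoRNA genes and pathway lists were chosen with earlier results of these data known. Genes above 0 in at least 1 sample were tested on log2(value + 1) with limma 3.58.1 (R 4.3.3; trended empirical Bayes), all genes in one fit of LPS against untreated with Benjamini-Hochberg adjustment. The limits for a call were p below 0.01 before adjustment and a change of more than 2 on the log2 scale, either way. Members named were those called, the 5 with the highest mean and the 3 with the largest fold change per class and direction, and their hosts; others, such as Snord49a, Snord65, Snord23, Snord35a, SNORA63, Rps3a1 and Rpl23a, were chosen after their values were seen. Positions, hosts and sequences came from GENCODE M39. A step was the value that placed the largest number of values of other single-transcript genes, within 8 bases of a length, at multiples of up to 6 within 1%, after a smooth change with length. The self-written parts were tested on simulated data. Alternatives were other pseudocounts, filters and scalings, the replicate block, and leaving out each sample.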

Additional observations from a re-analysis of the deposited data

How the results depend on the processing

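The H/ACA counts of 0 higher and 0 lower held under every alternative tried. The C/D count of 1 higher became 0 with a pseudocount of 0.1 (Snord89 5.74, adjusted p = 0.162) or with an adjusted p under 0.05, and was 0 to 1 with single samples left out. The C/D count of 0 lower was 0 to 1 with single samples left out (Snord98 without untreated sample 2, Snord71 without untreated sample 3). Snord89 stayed between 3.47 and 5.74 over 14 alternatives, with adjusted p from 0.0313 to 0.245. None of these alternatives changed the worth of a step at a given length. At the length of Snord89 this was 7.15, 7.67 and 7.61 in the untreated and 16.9, 34.8 and 14.1 in the LPS samples. Whether the replicate numbers pair the samples was not settled. Deviations of same-numbered samples from their group means correlated at 0.0935, 0.199 and 0.0835, and 3 of 3 numbers correlated best with their own. With the replicate block the counts stayed at 0 and 0 H/ACA and 1 and 0 C/D genes. With single samples left out, the fold change of Snora17 (-0.50) ran from -2.03 to 0.27, positive without untreated sample 1, LPS sample 1 or LPS sample 2, and that of Snora43 (0.48) from -0.79 to 1.26, negative without LPS sample 1. The other 14 snoRNA genes named by the rule kept their direction under the alternatives run. Of these, only Snora41, Snord17 and Snord89 had values in both groups. The rest had values in a single group, which largely fixed their sign. A gene listed in a single sample could not be fitted without that sample. The alternatives did not cover hosts, proteins or genes chosen after their values were seen. The median C/D sum after LPS over that of untreated samples was 1.74, 2.83 after scaling to equal sums and 0.855 to 2.80 with single samples left out. It was 0.0397 without Snord89, which was left out for having the largest value. For H/ACA this ratio was 2.17, 3.51 after scaling, 1.33 without Snora41 and 1.09 to 3.05 with single samples left out. C/D genes above 0 fell from 20 to 8 in the untreated group among genes of 100 bases or longer, a bound chosen after seeing the data, and from 6 to 2 in the LPS group at a value of at least 1. Steps of Snord89 with windows of 5 or 12 bases, also added after seeing the data, were 2.99 to 3.02 in LPS sample 1 and 6.01 to 6.04 in LPS samples 2 and 3. The small number of steps per gene limits every value here.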
